A study of Mus musculus with 4 samples.

Results

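Aquaporins are membrane channels for water, and some also pass glycerol. Carbonic anhydrases are enzymes that interconvert carbon dioxide and bicarbonate. Both families were followed by RNA sequencing in the gastric corpus mucosa of Muc6 -/- and Muc6 +/+ mice. The 10 genes described are Aqp1, Aqp3, Aqp4, Aqp5, Aqp11, Car2, Car4, Car8, Car9 and Car12, taken by name from the 34866 genes of the deposited count table. All 10 were found there, and all 10 passed the filter on low counts that left 14067 genes for testing. The Muc6 -/- group (knockout) has no working copy of the gene for a secreted gland mucin, and the Muc6 +/+ group (wild type) carries both copies. Each group has 2 libraries from corpus mucosa. The labels give no age, strain or treatment, and are silent on whether each library is its own animal, so p-values reflect only how these libraries vary, which may be technical.

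In the acid-secreting parietal cell, carbonic anhydrase makes protons for the gastric pump and bicarbonate that leaves across the basolateral membrane. Water follows the secreted ions through aquaporins, of which Aqp4 lies in the basolateral membrane of parietal cells, in rodents mainly those deep in the gland. Surface cells use carbonic anhydrases to make the bicarbonate that buffers their mucus layer, and Aqp5 is a channel of the apical membrane of secreting mucous and exocrine gland cells, known in the stomach from pyloric glands.

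Total counts ranged from 20327745 to 21717123 in knockout and from 20895793 to 27946423 in wild type. Muc6 itself had 0 and 10 counts in the knockout libraries and 8542 and 6000 counts in the wild-type libraries, which follows the labels. In counts per 1000000 of the scaled library (CPM), the 4 Y-linked genes Ddx3y, Eif2s3y, Kdm5d and Uty came to 1.43 and 2.44 in knockout and to 136 and 121 in wild type. Genotype and a difference in sex, as marked by Y-linked expression, thus cannot be told apart for any gene below. Knockout 1 also stood apart. Gast, the antral hormone gene, had 218 counts there, 0 in knockout 2, and 1 and 0 in wild type 1 and 2. The antral regulator genes Pdx1 and Nkx6-3 were at 59.0 and 122 CPM in knockout 1, at 2.52 and 0.454 CPM in knockout 2, and at no more than 0.363 CPM in wild type. The second library of each genotype carried more muscle RNA: a list of 6 smooth muscle genes summed to 430 and 2084 CPM in knockout 1 and 2 and to 323 and 2006 CPM in wild type 1 and 2.

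By the quasi-likelihood test of edgeR none of the 10 genes passed the adjusted threshold of 0.05, and neither did any of the 14067 genes tested (0%). At an unadjusted p under 0.05 there were 6 of the 10, against 15.9% of all genes tested. DESeq2 called 1044 genes (7.42%), among them 3 of the 10, namely Aqp5, Car2 and Car8. The CPM values of the genotypes did not overlap for 8 of the 10 genes, 4 with higher knockout values (26.3% of all genes tested) and 4 with lower ones (23.8%). The fitted log2 fold change came to at least 1 in size for 8 of the 10, against 15.5% of all genes. The median over the 10 was -0.00024, close to the -0.0017 over all genes, with 5 genes higher and 5 lower. The genes were listed with results of these libraries already known, so these shares describe the list and do not test it.

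**Figure D1:**
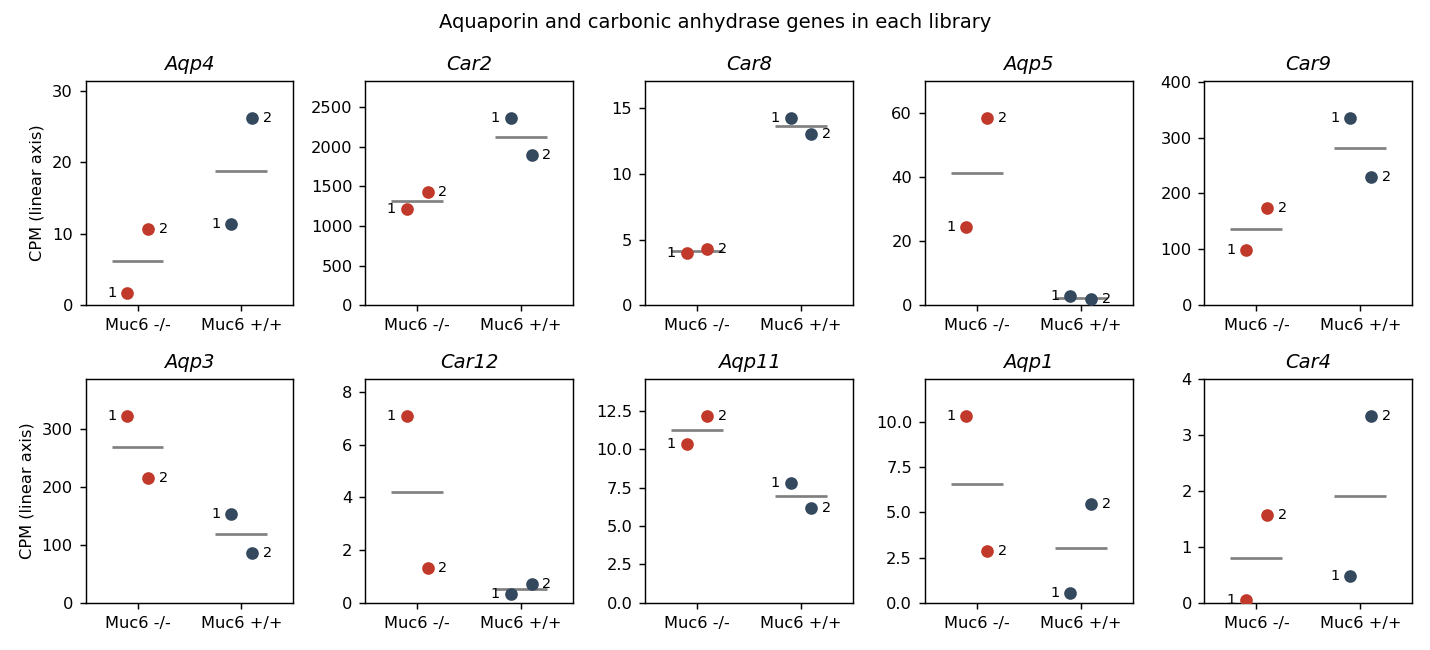
CPM (linear axis, each starting at 0) of the 10 genes in each library, with Muc6 -/- on the left and Muc6 +/+ on the right of each panel. Points are libraries with their number, and grey lines are group means (n = 2 each). The genotypes overlap in height for Aqp1 and Car4 and are separate for the other 8 genes, though for Aqp4 the nearest points are 10.7 and 11.3 CPM.

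Of the parietal genes, Aqp4 was low and uneven. Aqp4 (ENSMUSG00000024411.9, minus strand of chromosome 18 at 15389496 to 15410982, mm10) was at 1.70 and 10.7 CPM in knockout 1 and 2, and at 11.3 and 26.1 CPM in wild type 1 and 2. Both knockout values lay below both wild-type values, with knockout 2 close to wild type 1. Knockout had 2.79-fold lower summed counts (95% interval 2.44 to 3.20, counting error only). Fitted on the whole table, the log2 fold change came to -1.59 ± 0.986 (SE, n = 2 a genotype; edgeR adjusted p = 0.507). It was -3.52 without knockout 2, -0.87 without knockout 1 and -0.87 without wild type 2.

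Car2, the high-activity cytosolic carbonic anhydrase found in parietal and surface cells, was the most abundant of the 10 genes. Car2 (ENSMUSG00000027562.12, plus strand of chromosome 3 at 14886273 to 14900770) was at 1211 and 1424 CPM in knockout, against 2360 and 1893 CPM in wild type. The groups did not overlap, and the log2 fold change came to -0.69 ± 0.272 (SE, n = 2 a genotype; edgeR adjusted p = 0.339, DESeq2 adjusted p = 0.0187). Knockout had 1.63-fold lower summed counts (95% interval 1.61 to 1.65).

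The proton pump gave other values than its partners in acid and water transport. Atp4a, the catalytic subunit of the gastric pump, stood at 0.0337 and 0.318 of its wild-type mean in knockout 1 and 2. Aqp4 stood at 0.0909 and 0.571 of its own wild-type mean, and Car2 at 0.569 and 0.670. The 3 genes were thus lower in both knockout libraries, with Car2 nearest to its wild-type level. The log2 CPM of Car2 minus that of Atp4a was 1.78 and -1.23 in knockout 1 and 2, and -2.15 and -2.47 in wild type 1 and 2. An exact two-sided permutation test of that difference over the libraries gave p = 0.333, the smallest that a permutation test of 2 libraries against 2 can give. For Aqp4 minus Car2 the values were -9.10 and -6.99 in knockout and -7.64 and -6.15 in wild type, and they overlapped (exact permutation p = 0.667). In bulk mucosa fewer cells of a type and less RNA per cell cannot be told apart. All 16 genes of a parietal marker list were lower in knockout without overlap (23.8% of all genes tested). The list summed to 2066 and 7318 CPM in knockout and to 21975 and 20716 CPM in wild type, and its part in the Aqp4 and Car2 values was not tested.

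Aqp4 also differed within each genotype. Wild type 2 had 2.31 times the Aqp4 of wild type 1, and knockout 2 had 6.28 times that of knockout 1. A list of 8 chief cell genes, which mark the gland base, summed to 2746 and 94960 CPM in knockout 1 and 2 and to 77451 and 181078 CPM in wild type 1 and 2. That is the same order of the libraries within each genotype. Other lists had this order too. A list of 7 enteroendocrine genes summed to 86.6 and 381 CPM in knockout and to 461 and 943 CPM in wild type. The endothelial and smooth muscle lists also rose from library 1 to library 2, while the surface pit list fell. The part of any of these cells in the Aqp4 values was not tested. The 5 genes nearest to Aqp4 in centred log2 CPM over the 4 libraries, out of 8667 genes that averaged 10 CPM or more, were Ghrl, Tmem64, Sst, Pcp4l1 and Rdx, at distances of 0.211 to 0.595 log2 units. Ghrl, the ghrelin gene, was at 48.6 and 285 CPM in knockout and at 301 and 581 CPM in wild type. The 5 nearest to Car2 were Tnfrsf21, Cox6c, Eif3c, Trak1 and Cox7b, at distances of 0.0374 to 0.0613. Cox6c, a respiratory chain subunit, was at 164 and 195 CPM in knockout and at 311 and 258 CPM in wild type. The likeness rests on 4 libraries and is a description.

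Car8 was the steadiest of the lower genes. Car8 encodes a carbonic anhydrase relative without catalytic activity that binds the inositol trisphosphate receptor. Car8 (ENSMUSG00000041261.9, minus strand of chromosome 4 at 8143362 to 8239041) was at 3.95 and 4.25 CPM in knockout, against 14.2 and 13.1 CPM in wild type. The spread within each genotype was small beside the gap between them, with means of 4.10 ± 0.218 CPM in knockout and 13.7 ± 0.825 CPM in wild type (SD, n = 2 each). The log2 fold change came to -1.73 ± 0.197 (SE, n = 2 a genotype) and was place 54 of 14067 by p (adjusted p 0.180 by edgeR and 1.9e-05 by DESeq2). Knockout had 3.34-fold lower summed counts (95% interval 2.84 to 3.96). Leaving out 1 library at a time gave log2 fold changes of -1.84 to -1.67. A processed pseudogene, Gm11799, lies inside Car8 on the same strand without touching its exons.

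Aqp5 gave the largest fitted difference of the 10 genes. Aqp5 (ENSMUSG00000044217.17, plus strand of chromosome 15 at 99590782 to 99594829) was at 24.5 and 58.4 CPM in knockout 1 and 2, against 2.78 and 1.93 CPM in wild type. These rest on 546 and 1413 counts in knockout and 69 and 37 counts in wild type. Knockout 1 stood at 10.4 times and knockout 2 at 24.8 times the wild-type mean. Knockout had 17.5-fold higher summed counts (95% interval 14.4 to 21.5), and the log2 fold change came to 4.13 ± 0.557 (SE, n = 2 a genotype), place 117 of 14067 by p. The adjusted p was 0.200 by edgeR and 4.4e-11 by DESeq2. The log2 fold change of Aqp5 was 3.32 without knockout 2 and 4.58 without knockout 1. Its neighbours on the chromosome, Aqp2 and Aqp6, had 0 counts in all 4 libraries. That allows up to 0.156 CPM (3 counts) in wild type 2, the library of smallest scaled size.

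The values of mucous cell genes were mixed. Tff2, the trefoil peptide gene of mucous neck cells, stood at 13.8 and 8.60 times its wild-type mean in knockout 1 and 2. A list of 7 mucous neck genes without Aqp5 summed to 13168 and 9696 CPM in knockout and to 1580 and 1187 CPM in wild type, most of it Tff2. Of its 6 tested members 3 were higher without overlap (26.3% of all genes tested) and 1, Fut9, was lower (23.8%), while A4gnt and Creb3l4 overlapped. Tff2 was higher in knockout 1 than in knockout 2, whereas Gkn3, A4gnt, Fut9, Agr2 and Creb3l4 were higher in knockout 2, as Aqp5 was. In wild type 2 Tff2, Fut9 and Agr2 were lower than in wild type 1, as Aqp5 was, and Gkn3, A4gnt and Creb3l4 were higher. The 10 genes of a metaplasia list, which shares Tff2 and Gkn3 with the mucous neck list, were all higher in the fit, 9 without overlap (26.3% of all genes tested), and summed to 19131 and 11215 CPM in knockout and to 2492 and 1810 CPM in wild type. The part of these cells in the Aqp5 values was not tested. Of the 6 antral genes listed, Gast, Pdx1, Nkx6-3 and Onecut2 were lower in knockout 2 than in knockout 1. Sst and Hoxa5 were higher in knockout 2, as Aqp5 was. Sst was at 20.7 and 133 CPM in knockout 1 and 2 and at 88.5 and 217 CPM in wild type 1 and 2. Hoxa5 was at 0.134 and 2.15 CPM in knockout and at 0.363 and 3.85 CPM in wild type. Both were thus also higher in wild type 2 than in wild type 1, whereas Aqp5 was lower there. The part of antral tissue in the Aqp5 values was not tested. The 5 genes nearest to Aqp5 were Tfrc, Scara3, Adtrp, Itih2 and Tff2, at distances of 1.02 to 1.39 log2 units, wider than for Aqp4 and Car2. Scara3 was at 24.97 and 59.8 CPM in knockout and at 3.35 and 5.94 CPM in wild type.

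The mucous gene was also set against the parietal and surface genes within each library. The log2 CPM of Aqp5 minus that of Aqp4 was 3.50 and 2.39 in knockout and -1.85 and -3.46 in wild type. Against Car2 it was -5.60 and -4.60 in knockout and -9.49 and -9.61 in wild type, and against the surface gene Car9 it was -1.999 and -1.57 in knockout and -6.67 and -6.57 in wild type. Each of these 3 differences separated the genotypes, at the smallest p that a permutation test allows here (exact two-sided permutation p = 0.333, 0.533 adjusted over the 8 pairs compared).

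Car9 and Car12 are membrane carbonic anhydrases with an active site outside the cell, and Car9 is known from gastric surface cells and as a target of the hypoxia response. Car9 (ENSMUSG00000028463.14, plus strand of chromosome 4 at 43506966 to 43513729) was at 99.3 and 174 CPM in knockout, against 334 and 230 CPM in wild type. The groups did not overlap, knockout had 2.09-fold lower summed counts (95% interval 2.03 to 2.16), and the log2 fold change came to -1.05 ± 0.378 (SE, n = 2 a genotype; edgeR adjusted p = 0.314). An antisense gene, Gm12454, overlaps exons of Car9 on the opposite strand, and whether the counting used strand is not given in the sources used here. Gkn1, a surface pit gene, stood at 0.435 and 0.401 of its wild-type mean, against 0.352 and 0.616 for Car9. Car9 minus Gkn1 in log2 CPM was -7.12 and -6.19 in knockout and -6.83 and -6.80 in wild type, which overlapped (exact permutation p = 1). A list of 10 surface pit genes summed to 71311 and 55954 CPM in knockout and to 122029 and 81996 CPM in wild type. Of its members 6 were lower without overlap (23.8% of all genes tested), and Gkn1 had the lowest log2 fold change of the list, -1.26. Tff1, Ctse, Capn8 and Anxa10 overlapped, with Tff1 at -0.04 and Ctse at 0.08 on the log2 scale. The part of surface pit cells in the Car9 values was not tested. Of the 14 hypoxia response genes listed, Car9 aside, 9 were higher and 5 lower in the fit, with a median log2 fold change of 0.17. As an example from each side, Vegfa was at 50.3 and 49.1 CPM in knockout and at 69.5 and 60.7 CPM in wild type. P4ha1 was at 46.4 and 39.6 CPM in knockout and at 16.3 and 21.4 CPM in wild type. The part of a hypoxia response in the Car9 values was not tested.

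Car12 was scarce, and its higher knockout mean came mainly from knockout 1. Car12 (ENSMUSG00000032373.15, plus strand of chromosome 9 at 66713686 to 66766845) had 158 and 32 counts in knockout 1 and 2 and 8 and 14 counts in wild type 1 and 2. In CPM these were 7.08 and 1.32 in knockout and 0.323 and 0.729 in wild type. The log2 fold change came to 3.0 ± 1.08 (SE, n = 2 a genotype; edgeR adjusted p = 0.311). Without knockout 1, the library with antral genes, it was 1.27.

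Aqp3, a basolateral channel for water and glycerol in surface and squamous epithelium, was the most abundant aquaporin. Aqp3 (ENSMUSG00000028435.8, minus strand of chromosome 4 at 41092722 to 41098183) was at 321 and 215 CPM in knockout, against 153 and 85.6 CPM in wild type. Both knockout libraries lay above both wild-type libraries, with summed counts 2.15-fold higher (95% interval 2.08 to 2.22). The log2 fold change came to 1.17 ± 0.394 (SE, n = 2 a genotype; edgeR adjusted p = 0.296, DESeq2 adjusted p = 0.0506). Aqp3 and the surface gene Car9 thus stood on opposite sides of wild type. The 10 squamous forestomach genes listed, of which 5 passed the filter on low counts, summed to 198 and 14.1 CPM in knockout 1 and 2 and to 1.13 and 0.781 CPM in wild type, with Trp63, Sprr3 and Krtdap at 0 in all 4 libraries and Lor at 0.269 and 0.289 CPM in knockout and 0.242 and 0.521 CPM in wild type. In knockout 2, where that list was at 14.1 CPM and still above both wild-type libraries, Aqp3 was at 1.80 times its wild-type mean. All 5 tested genes of the list were higher in knockout without overlap (26.3% of all genes tested). Both Aqp3 and the list were higher in library 1 than in library 2 of each genotype. In wild type the order of the list rested on few counts, mainly those of Krt13 (21 and 5), and Lor (6 and 10 counts) went the other way. The part of squamous tissue in the Aqp3 values was not tested.

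The promoters of Aqp5, Aqp3 and Car9 are shown because these genes carried the largest difference, the most aquaporin transcript and the surface signal. RefSeq starts were found for 7 of the 10 genes (build GRCm38.p6). The sequences are the 250 bases before the RefSeq start, read 5′ to 3′ on the gene's strand, at chr15:99590778-99591027 for Aqp5 (plus), chr4:41098184-41098433 for Aqp3 (minus) and chr4:43506776-43507025 for Car9 (plus). The annotated GENCODE genes of Aqp5 and Car9 begin inside these windows, at 99590782 for Aqp5 and at 43506966 for Car9. Nearly all of the Aqp5 window, with all its marked matches, thus lies within the annotated gene. The same holds for the last part of the Car9 window, with its hypoxia core. Capitals mark matches on either strand to 5 motifs: the TATA box, searched as TATAAA, the GC box, searched as GGGCGG, the CAAT box, searched as CCAAT, the core of the hypoxia response element, searched as ACGTG, and the AP-1 site, searched as TGAGTCA.
Aqp5: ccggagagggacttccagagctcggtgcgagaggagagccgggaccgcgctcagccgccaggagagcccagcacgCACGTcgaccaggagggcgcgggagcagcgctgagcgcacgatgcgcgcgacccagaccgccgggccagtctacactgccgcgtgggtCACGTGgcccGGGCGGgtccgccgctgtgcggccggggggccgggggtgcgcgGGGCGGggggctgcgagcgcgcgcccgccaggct
Aqp3: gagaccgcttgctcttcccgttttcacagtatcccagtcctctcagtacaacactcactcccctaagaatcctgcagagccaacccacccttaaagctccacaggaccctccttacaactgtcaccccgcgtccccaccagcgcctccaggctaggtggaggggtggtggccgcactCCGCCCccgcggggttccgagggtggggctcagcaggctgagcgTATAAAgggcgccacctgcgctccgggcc
Car9: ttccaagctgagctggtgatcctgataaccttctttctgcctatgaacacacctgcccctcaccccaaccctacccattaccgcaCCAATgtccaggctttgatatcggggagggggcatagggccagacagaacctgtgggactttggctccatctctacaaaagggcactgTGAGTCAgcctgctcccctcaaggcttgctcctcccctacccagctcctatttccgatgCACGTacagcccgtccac
The Aqp5 window held the GC box at 77 to 72 and at 34 to 29 bases before the start, and the hypoxia core on the opposite strand at 175 to 171. A palindrome at 87 to 82 matched the hypoxia core on both strands, so those 2 matches overlap. The window had a G and C content of 78.4%, against a median of 52.4% over 32851 RefSeq windows of the same length, and it held 38 CpG steps against a median of 6. The Aqp3 window held the TATA box at 29 to 24 and the GC box on the opposite strand at 73 to 68. The Car9 window held the hypoxia core on the opposite strand at 18 to 14, the AP-1 site at 77 to 71 and the CAAT box at 165 to 161. On either strand the hypoxia core was found in 16.6% of all windows, the GC box in 32.7%, the CAAT box in 33.8%, the TATA box in 12.4% and the AP-1 site in 4.46%. These matches describe the letters only.

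Aqp11, an aquaporin of intracellular membranes, differed little but evenly. Aqp11 (ENSMUSG00000042797.9, minus strand of chromosome 7 at 97724006 to 97738289) was at 10.4 and 12.1 CPM in knockout, against 7.79 and 6.15 CPM in wild type. The groups did not overlap, and the log2 fold change came to 0.69 ± 0.230 (SE, n = 2 a genotype; edgeR adjusted p = 0.290).

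Aqp1 and Car4 were the 2 genes whose values overlapped between the genotypes. Aqp1, the water channel of endothelium and red cells (ENSMUSG00000004655.5, plus strand of chromosome 6 at 55336432 to 55348555), was at 10.3 and 2.85 CPM in knockout 1 and 2 and at 0.565 and 5.47 CPM in wild type 1 and 2. Its log2 fold change came to 1.13 ± 1.25 (SE, n = 2 a genotype; edgeR adjusted p = 0.728), and -0.16 without knockout 1. Car4, a lipid-anchored carbonic anhydrase of capillary endothelium and some epithelia (ENSMUSG00000000805.18, plus strand of chromosome 11 at 84957786 to 84966044), had 1 and 38 counts in knockout 1 and 2 and 12 and 64 counts in wild type 1 and 2. Its log2 fold change came to -1.22 ± 1.71 (SE, n = 2 a genotype; edgeR adjusted p = 0.784), and 0.73 without wild type 2. Both library 2 values of Car4 lay above both library 1 values. The 10 endothelial genes listed, led by Plvap and Pecam1, summed to 25.6 and 77.8 CPM in knockout 1 and 2 and to 23.6 and 129 CPM in wild type 1 and 2. Aqp1 was highest in knockout 1, where that sum was 25.6 CPM, and 8 red cell genes summed to 30.6 and 42.4 CPM in knockout and to 28.6 and 62.9 CPM in wild type. The part of these cells in the Aqp1 and Car4 values was not tested.

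**Figure D2:**
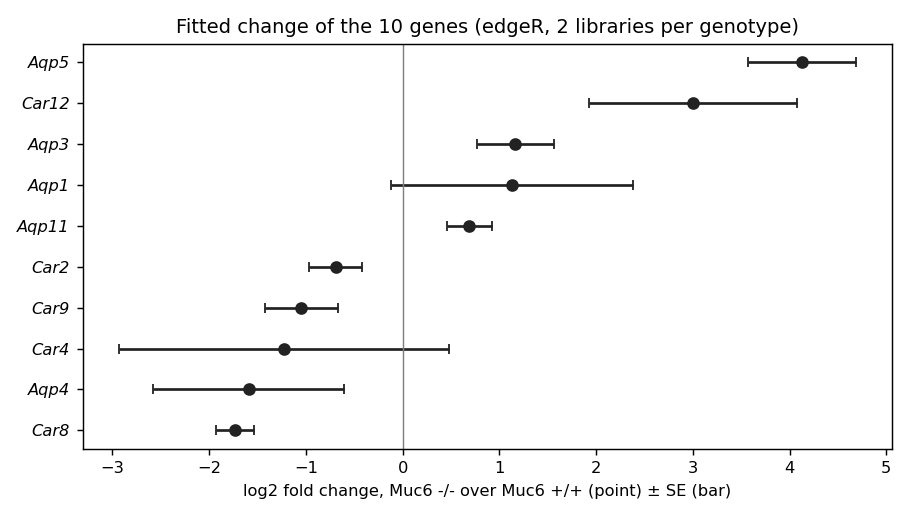
Fitted log2 fold change of the 10 genes, Muc6 -/- over Muc6 +/+ (horizontal axis, points with standard errors, edgeR, 2 libraries per genotype), ordered by size. Car8 at -1.73 and Aqp5 at 4.13 have errors of 0.197 and 0.557, while the errors of Aqp1 and Car4 reach across 0.

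Between genes, levels were set side by side as CPM per kilobase of exon, with exon lengths from GENCODE release M21. In knockout the order of mean levels was Car2 (544 CPM per kilobase), Aqp3 (146), Car9 (59.3), Aqp5 (15.9), Aqp1 (2.50), Aqp11 (1.19), Car8 (1.06), Aqp4 (0.995), Car12 (0.553) and Car4 (0.410). In wild type it was Car2 (878 CPM per kilobase), Car9 (122), Aqp3 (65.2), Car8 (3.54), Aqp4 (3.01), Aqp1 (1.15), Car4 (0.971), Aqp5 (0.906), Aqp11 (0.740) and Car12 (0.0692). In knockout the libraries of Car2, Aqp3, Car9 and Aqp5 did not overlap with those of any neighbour in the order, and from Aqp1 to Car4 each gene overlapped the next. In wild type Car2, Car9 and Aqp3 stood clear of their neighbours, as did Car12 at the low end, and from Car8 to Aqp11 each gene overlapped the next. Aqp5 took the fourth place in knockout and the eighth in wild type.

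As wholes the families lay on opposite sides of wild type. The 12 aquaporin genes summed to 191 and 144 CPM per kilobase in knockout, against 87.6 and 54.8 in wild type, and the 16 carbonic anhydrase genes to 581 and 700 CPM per kilobase in knockout, against 1169 and 924 in wild type. Aqp3 made up 92.2% and 81.5% of the aquaporin sum in knockout and 95.4% and 85.4% in wild type. Aqp5 made up 4.94% and 15.6% in knockout and 1.22% and 1.35% in wild type, and Aqp4 made up 0.143% and 1.19% in knockout and 2.08% and 7.65% in wild type. Car2 made up 86.1% and 84.0% of the carbonic anhydrase sum in knockout and 83.4% and 84.6% in wild type.

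**Figure D3:**
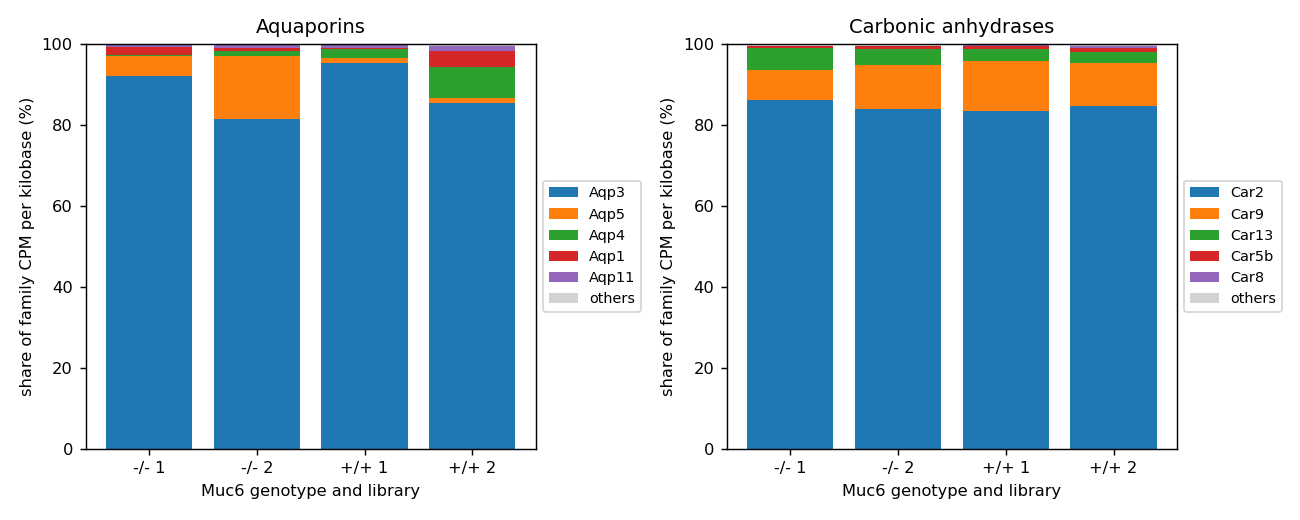
Share of each gene in the summed CPM per kilobase of its family (vertical axis, %), in each library, for the 12 aquaporin and 16 carbonic anhydrase genes, Muc6 -/- libraries left of Muc6 +/+ libraries. Aqp5 (orange, left) takes 4.94% and 15.6% in knockout, against 1.22% and 1.35% in wild type, while Car2 (blue, right) holds between 83.4% and 86.1% in all 4 libraries.

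The other aquaporins did not reach the filter on low counts, and 3 of these 7, Aqp2, Aqp6 and Aqp12, had no count in any library. Of the 11 other carbonic anhydrases, 7 were tested, 5 were lower in knockout without overlap (23.8% of all genes tested) and none passed (0%). Car5b, a mitochondrial isozyme, was at 18.8 and 28.4 CPM in knockout, against 60.7 and 54.1 CPM in wild type (-1.28 ± 0.246 on the log2 scale, SE, n = 2 a genotype; adjusted p 0.213 by edgeR). Car13, a cytosolic isozyme, lies on chromosome 3 as Car2 does, with Car1 and Car3 between them. Car13 was at 72.6 and 64.7 CPM in knockout and at 78.1 and 58.7 CPM in wild type, which overlapped (log2 fold change 0.01 ± 0.196, SE). Car3 was at 0.314 and 0.619 CPM in knockout and at 0.726 and 1.72 CPM in wild type, and Car14 at 0 and 0.454 CPM in knockout and at 0.565 and 1.93 CPM in wild type. Car11 was at 0.807 and 0.702 CPM in knockout and at 0.847 and 1.56 CPM in wild type, and Car15 at 0.986 and 1.28 CPM in knockout and at 1.37 and 1.67 CPM in wild type. Car7, the last of the 7, was at 0.359 and 0.909 CPM in knockout and at 0.323 and 0.833 CPM in wild type. Car1, the erythrocyte and colon isozyme, had 0 counts in all 4 libraries.

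Ion transporters that work beside these enzymes and channels were listed as well. Of 34 genes for bicarbonate, chloride, proton and potassium transport, 29 were tested, 8 were higher and 21 lower, and none passed (0%). Without overlap between the genotypes there were 5 higher (26.3% of all genes tested) and 16 lower (23.8%), and the list includes the parietal pump genes. Slc4a2, the basolateral anion exchanger of parietal cells, was at 167 and 290 CPM in knockout, against 751 and 660 CPM in wild type. Slc26a9, an apical chloride transporter, was at 78.6 and 111 CPM in knockout, against 426 and 282 CPM in wild type, and the anion exchanger gene Slc26a6 was at 3.86 and 9.003 CPM, against 22.1 and 21.2 CPM in wild type. These 3 genes lay below wild type by more than Car2 did, with log2 fold changes of -1.62, -1.90 and -1.75. Kcnq1, a potassium channel of the parietal cell, was at 45.7 and 62.2 CPM in knockout, against 126 and 135 CPM in wild type. Slc12a2, the sodium, potassium and chloride cotransporter, was at 340 and 360 CPM in knockout, against 619 and 573 CPM in wild type, and Atp1b1, a subunit of the sodium pump, at 597 and 672 CPM, against 1185 and 1105 CPM in wild type. On the other side, the sodium-proton exchanger gene Slc9a3 was at 13.7 and 14.7 CPM in knockout, against 1.05 and 1.15 CPM in wild type, and the sodium bicarbonate cotransporter gene Slc4a7 at 107 and 80.7 CPM, against 49.6 and 50.9 CPM in wild type. Cftr, the chloride and bicarbonate channel, was at 127 and 24.1 CPM in knockout, against 0.323 and 0.260 CPM in wild type, and Slc4a11 at 21.5 and 1.53 CPM, against 0.242 and 0.521 CPM in wild type. For Cftr and Slc4a11, as for Car12, knockout 1 was far above knockout 2.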

How the data were processed

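Polyadenylated RNA of gastric corpus mucosa was sequenced from stranded libraries, per the labels' protocols. The build was mm10, per the submitters' processing notes; how reads were aligned and counted, and whether strand was used, is not given in the sources used here. The authors' deposited values are estimated counts by gene, not normalized as far as can be seen. Among values above 0, 35.0% were not whole (tolerance 1e-06), so these expected counts were rounded before any test, and values of near-identical copies are uncertain. Symbols were matched for 34582 of 34866 identifiers, and lengths came from GENCODE M21.

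The genotypes were compared with edgeR 4.0.16 under R 4.3.3 (quasi-likelihood test, robust dispersion, TMM factors, filterByExpr with a minimum of 10 counts, no covariate), fitted on 14067 genes, with p-values adjusted by Benjamini-Hochberg and read at 0.05. The standard error is the size of the log2 fold change over the square root of the F statistic. CPM values use TMM-scaled library sizes. Intervals of summed-count ratios are exact at 95% (Clopper-Pearson on the sum), and these and the floor of 3 counts per library cover counting error only. One count was worth 0.0403 to 0.0521 CPM. Libraries of a genotype were not duplicates (chi-square of 272 per degree of freedom in knockout and 139 in wild type). Differences between members were tested by exact permutation, and likeness of genes is the Euclidean distance of centred log2(CPM + 0.5).

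The genes, marker lists and alternatives were chosen with earlier results of these data known. Alternatives were relative log expression and upper-quartile factors, totals that omit the 20 most abundant genes, no filter, at least 50 counts in 2 libraries, DESeq2 1.42.0, limma 3.58.1 (voom), the sample number as a block and each library left out. The bias-adjusted deviance of edgeR was added after seeing the data. Named genes were Muc6, the 10 genes, tested relatives, the 10 transporters of smallest p under 0.05 and the nearest genes. Marker genes named singly beyond the leading members of each list were picked with their values in view. The fit was also run on simulated counts with a common mean per gene, the fitted dispersion and known fold changes in some genes. That simulation held no tissue differences between libraries of a genotype, and its outcome is not given here.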

Additional observations from a re-analysis of the deposited data

How the results depend on the processing

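Of the alternatives, 121 of the values for single members kept their direction and their side of the threshold, 5 passed it and 2 turned sign. The 2 that turned were Aqp1, at -0.16 without knockout 1, and Car4, at 0.73 without wild type 2, and the cause was not tested. With each library left out, Aqp1 ran from -0.16 to 3.52 and Car4 from -5.32 to 0.73. The number of genes past an adjusted p of 0.05 was 0 by edgeR, 1044 by DESeq2 and 9 without the filter. By edgeR 2236 genes had an unadjusted p under 0.05. With each library left out in turn it ran from 0 to 851, with 9 without knockout 1 and 851 without knockout 2. Of the 10 members 3 passed by DESeq2, and 0 to 2 with each library left out. The 5 passes were Aqp5, Car2 and Car8 by DESeq2 and Aqp5 and Car8 without knockout 2. Leaving out 1 library leaves 1 sample in an arm, which is assumed to vary like the other group. The median log2 fold change of all genes was -0.0017 as reported, and lay between -0.024 and 0.0495 with other library sizes or factors. Car4 and Car12 were not tested under the filter of 50 counts. The labels do not say that sample numbers pair the libraries. With the number as a replicate block 0 genes and 0 members passed, as without it. The deviations of same-numbered libraries correlated at 0.529. With 2 libraries per genotype the crossed pairing must give the opposite value, -0.529. Any difference shared by the libraries of 1 number, such as in muscle RNA, adds to it, so it cannot show whether the numbers pair the libraries. Depth limits Car4, with 1 count in knockout 1, and the aquaporins with no counts.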
